A study of Mus musculus with 18 samples.

Results

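Tbx18, Osr1, Osr2, Meox2, En1, Ebf1, Ebf2, Tcf21, Foxs1 and Dlx2 are 10 transcription factor genes known for their roles in mesenchymal lineages, and they were followed by symbol in RNA-seq count tables of mouse cancer cells. The 10 genes were found in both tables, among 24455 genes for the breast cancer line 168FARN and 24532 for the lung cancer line LLC1. Hox genes were not among them. The genes were selected on their levels and changes in these same 18 libraries, all comparisons included, so their values are given as a description with no p.

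Cells of the 168FARN line were grown alone or mixed with cancer-associated fibroblasts of the MMTV-PyMT mouse model of breast cancer (MMTV-CAF), and LLC1 cells were grown alone or mixed with wound healing fibroblasts taken at day 10 after wounding. The fibroblasts carried a control guide RNA (WT) or a guide RNA that deletes Prrx1 (sgPrrx1), a homeobox transcription factor gene of fibroblasts, and there were 3 fibroblasts per cancer cell. Per the study's methods, cells were cultured as hanging-drop spheroids and the GFP-tagged cancer cells were sorted by flow cytometry before RNA was extracted, so the fibroblasts were the only cells in which Prrx1 was deleted. Each line had 3 groups (alone, WT coculture, sgPrrx1 coculture) of 3 libraries, each line is 1 cell line, and nothing in the labels says that the libraries of a group came from separate cultures. P-values printed for other genes therefore measure the spread between these libraries, which may be technical.

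Mesenchymal cells of the embryo are told apart largely by the transcription factors they carry. T-box factors such as Tbx18 and bHLH factors such as Tcf21 mark mesenchyme of the epicardium and of visceral organs, the odd-skipped zinc finger factors Osr1 and Osr2 act in kidney, limb and palate mesenchyme, and the homeobox factors En1, Meox2 and Dlx2 act in skin and limb, in somites and in the facial mesenchyme. Ebf1 and Ebf2 act in fat and bone precursors, Ebf1 also in B cells, and Foxs1 is a forkhead factor of the cells around blood vessels. Several of these genes stay on in adult fibroblasts, and En1 marks the lineage of scar-forming fibroblasts of the back skin.

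Totals ran from 48315037 to 68933002 counts in 168FARN and from 66129117 to 103997557 in LLC1, and levels are given as CPM, counts scaled to the library size after TMM scaling within each table. LLC1 sgPrrx1 replicate 3 stood apart from the other LLC1 libraries, with a first principal component score of 86.6 against -25.3 to -1.04. Its correlation with its own group was 0.954, against at least 0.992 within the other LLC1 groups, so LLC1 results are also given without it. Prrx1 itself had 88.2 CPM in 168FARN cells alone, 129 CPM with WT fibroblasts and 112 CPM with sgPrrx1 fibroblasts, and in LLC1 it had 206, 218 and 177 CPM. Since the deletion was in the fibroblasts, these levels do not check the labels. Of 10 epithelial markers, which summed to 329 to 432 CPM in 168FARN, most of it Krt8 (331 CPM in cells alone), Krt5, Cldn7 and Esrp1 had 0 counts in all 9 libraries of 168FARN, and Epcam, Krt5, Krt14, Cldn7 and Esrp1 had 0 counts in all 9 libraries of LLC1.

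The promoters of Tbx18, Meox2, En1 and Dlx2 are shown because these genes were at or near 0 counts in 168FARN cells alone and present in all 3 WT coculture libraries. The promoter table used here, made from RefSeq on GRCm38.p6, the assembly behind the authors' build mm10, gave a window for 6 of the 10 genes. The windows are the 250 bases before each start, 5′ to 3′ in the direction of the gene: chr9:87731261-87731510 on the minus strand for Tbx18, chr12:37108290-37108539 on the plus strand for Meox2, chr1:120602237-120602486 on the plus strand for En1, and chr2:71546755-71547004 on the minus strand for Dlx2. Capitals mark CG dinucleotides, the bases whose methylation is measured at promoters.
Tbx18: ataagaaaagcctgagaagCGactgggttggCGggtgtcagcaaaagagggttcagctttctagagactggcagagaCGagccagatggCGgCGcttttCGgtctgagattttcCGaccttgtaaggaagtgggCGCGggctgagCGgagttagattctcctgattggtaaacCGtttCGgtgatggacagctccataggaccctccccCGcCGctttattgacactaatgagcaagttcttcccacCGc
Meox2: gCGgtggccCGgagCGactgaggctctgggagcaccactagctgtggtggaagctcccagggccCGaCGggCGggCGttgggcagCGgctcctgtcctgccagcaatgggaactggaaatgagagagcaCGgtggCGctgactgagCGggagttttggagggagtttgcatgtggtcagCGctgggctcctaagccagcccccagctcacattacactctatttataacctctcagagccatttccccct
En1: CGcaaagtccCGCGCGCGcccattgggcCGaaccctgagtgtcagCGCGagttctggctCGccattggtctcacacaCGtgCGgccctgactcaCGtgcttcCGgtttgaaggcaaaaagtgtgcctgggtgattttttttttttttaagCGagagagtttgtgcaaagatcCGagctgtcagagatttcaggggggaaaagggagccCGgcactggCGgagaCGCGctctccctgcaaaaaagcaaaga
Dlx2: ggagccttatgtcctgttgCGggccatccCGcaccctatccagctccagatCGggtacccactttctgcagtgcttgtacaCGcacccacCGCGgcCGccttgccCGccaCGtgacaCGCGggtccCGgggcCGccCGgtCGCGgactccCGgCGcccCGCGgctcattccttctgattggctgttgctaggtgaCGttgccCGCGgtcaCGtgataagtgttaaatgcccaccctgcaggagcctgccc
These windows held 15 CG dinucleotides for Tbx18, 12 for Meox2, 19 for En1 and 24 for Dlx2, against a median of 6.00 over 32851 RefSeq windows of the same length. By CG number they stood at the percentiles 72.7, 66.5, 80.3 and 88.0 in that order. The letters TAATTA, the core that homeodomain factors bind, were searched on both strands and were found in none of the 7 windows of the 6 genes, against 4.84% of all windows. The letters TATAAA were found once in the Meox2 window (12.4% of all windows) and CAGATG once in the Tbx18 window (14.4%). AGGTGT was found once in the second of 2 Ebf1 windows (11.8%), also on the opposite strand, and the EBF palindrome in none (0.779%). A match is a description of the letters only.

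In 168FARN cells, 8 of the 10 genes rose in WT coculture over cells alone, with edgeR's quasi-likelihood test at an adjusted p under 0.05, and none fell. Of the other two, Osr2 was tested and not called, and Tcf21 had 0 counts in all 9 libraries and did not pass the filter on low counts. The share of all 13540 genes called higher in that comparison was 33.4%. With sgPrrx1 fibroblasts in place of WT fibroblasts, 7 of the 9 tested genes were lower, beside 33.1% of all genes. Against cells alone, 7 of the 9 were still higher in sgPrrx1 coculture, beside 25.7% of all genes. Libraries of the groups compared did not overlap for 8, 7 and 7 of the 9 genes, beside 35.3%, 30.6% and 36.2% of all genes in the same directions (WT and sgPrrx1 coculture above alone, sgPrrx1 below WT). These comparisons are the ones the list was drawn from, and they share libraries, so nothing is read from the counts. The median log2 fold change over the 9 tested genes was 4.35 for WT coculture against alone (3.25 with Meox2 and Dlx2, at 0 counts in cells alone, set to their lower bounds) and -1.43 for sgPrrx1 against WT coculture. Over all genes tested the medians were 0.01 and -0.03.

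**Figure D1:**
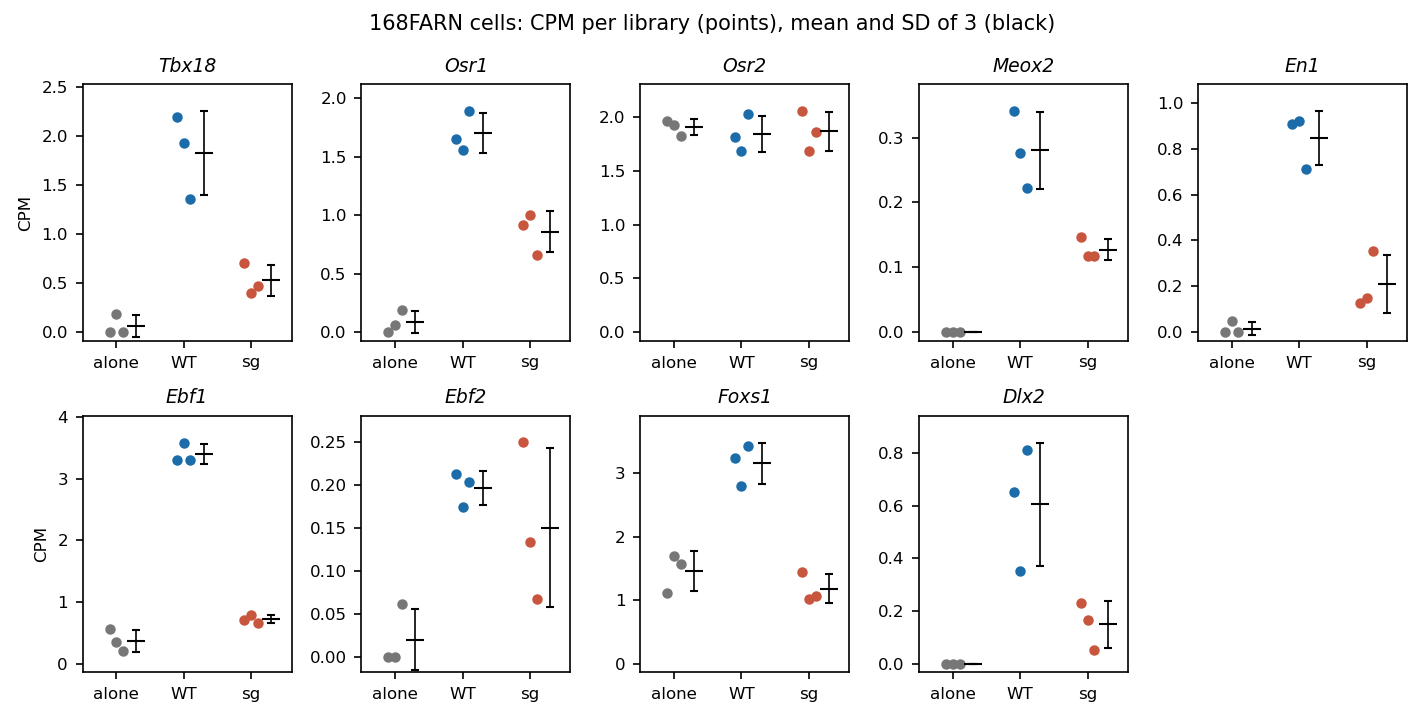
CPM of 9 of the 10 genes (Tcf21 was at 0 throughout) in 168FARN cells grown alone, with WT fibroblasts or with sgPrrx1 fibroblasts (sg). Points are libraries and black marks are the mean and SD of 3, on a linear axis of its own for each gene. For Tbx18, Osr1, Meox2, En1, Ebf1, Foxs1 and Dlx2 the 3 WT libraries are above the other 6, and Osr2 is between 1.69 and 2.06 CPM in all 9.

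Tbx18, on chromosome 9 (chr9:87702800-87731260), had 0, 12 and 0 counts in the 3 libraries of 168FARN cells alone, which is 0, 0.187 and 0 CPM. It had 2.20, 1.93 and 1.36 CPM with WT fibroblasts and 0.709, 0.401 and 0.474 CPM with sgPrrx1 fibroblasts. The 3 groups did not overlap, and the sgPrrx1 libraries lay between the other two groups. The log2 fold change was 4.62 ± 0.618 (SE, n = 3 libraries per group) for WT coculture against alone and -1.82 ± 0.450 for sgPrrx1 against WT coculture, where the mean level was 28.9% of that with WT fibroblasts. The first value rests on the 12 counts of replicate 2 of cells alone: without it cells alone are at 0, and the fitted 9.70 depends on the prior count. The call in the second comparison was lost with DESeq2, at a log2 fold change of -1.79.

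The odd-skipped genes Osr1 and Osr2, which encode close relatives with shared roles in limb and palate mesenchyme, differed from each other. Osr1 (chr12:9574442-9581500) had 0, 0.0623 and 0.185 CPM in cells alone, 1.65, 1.56 and 1.89 CPM with WT fibroblasts and 0.918, 1.00 and 0.660 CPM with sgPrrx1 fibroblasts. No library of a group overlapped with another group. Its log2 fold change was 4.35 ± 0.481 in WT coculture and 3.38 ± 0.517 in sgPrrx1 coculture, each against cells alone, and 5.50 and 4.53 without replicate 3 of cells alone. Between the cocultures it was -0.98 ± 0.332, a mean of 50.6% of the WT level, and this call was lost with a replicate block and when any of the 3 WT libraries or sgPrrx1 replicates 1 or 3 was left out, with values from -1.03 to -0.82.

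Osr2 (chr15:35296098-35303305) had 1.97, 1.93 and 1.83 CPM in cells alone, 1.82, 1.69 and 2.03 CPM with WT fibroblasts and 2.06, 1.69 and 1.86 CPM with sgPrrx1 fibroblasts. The 3 groups overlapped in full. Its log2 fold changes were -0.06 ± 0.146, -0.03 ± 0.147 and 0.02 ± 0.146 for WT against alone, sgPrrx1 against alone and sgPrrx1 against WT. It was the 1 tested gene of the list with no call in any comparison of this line.

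Among the homeobox genes, En1 (chr1:120602487-120607991) had 0, 3 and 0 counts in cells alone. Its level was 0.909, 0.920 and 0.710 CPM with WT fibroblasts and 0.125, 0.150 and 0.355 CPM with sgPrrx1 fibroblasts. All WT libraries were above all sgPrrx1 libraries, and the third sgPrrx1 library was the highest of its group. With 3 counts in cells alone, the ratio of pooled counts in WT coculture to those in cells alone was 46.3 (95% exact interval 15.6 to 227, counting error only). Those 3 counts are in replicate 2, and without it cells alone are at 0. Between the cocultures the log2 fold change was -1.98 ± 0.464, a mean of 24.8% of the WT level, and -2.60 without sgPrrx1 replicate 3.

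Meox2 (chr12:37108540-37179534) was at 0 counts in each of the 3 libraries of cells alone. It had 24, 19 and 11 counts in WT coculture (0.341, 0.277 and 0.223 CPM) and 7, 7 and 7 counts in sgPrrx1 coculture (0.146, 0.117 and 0.118 CPM). The groups did not overlap. Against a floor of 3 counts per library in cells alone, Meox2 was at least 4.95-fold higher in WT coculture and at least 2.24-fold higher in sgPrrx1 coculture. The log2 fold change between the cocultures was -1.15 ± 0.420, and this call was lost with DESeq2, with no filter, with a replicate block and when any WT or sgPrrx1 library was left out, with values from -1.28 to -0.98.

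Dlx2 (chr2:71543408-71546754) was likewise at 0 counts in each of the 3 libraries of 168FARN cells alone. It had 0.654, 0.350 and 0.812 CPM with WT fibroblasts and 0.229, 0.167 and 0.0508 CPM with sgPrrx1 fibroblasts. The lowest WT library was above the highest sgPrrx1 library. Dlx2 was at least 10.7-fold higher in WT coculture and at least 2.63-fold higher in sgPrrx1 coculture than in cells alone. Between the cocultures the log2 fold change was -2.02 ± 0.545, a mean of 24.6% of the WT level.

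Of the Ebf genes, Ebf1 (chr11:44618100-45008096) had 0.555, 0.343 and 0.206 CPM in cells alone, 3.31, 3.59 and 3.31 CPM with WT fibroblasts and 0.709, 0.786 and 0.660 CPM with sgPrrx1 fibroblasts. The WT libraries stood well above both other groups, and the sgPrrx1 libraries were just above cells alone. The log2 fold change was 3.21 ± 0.251 for WT coculture and 0.97 ± 0.286 for sgPrrx1 coculture, each against cells alone. The second call was lost without replicate 2 of cells alone (0.91) or without sgPrrx1 replicate 2 (0.90). Between the cocultures Ebf1 fell by 2.24 ± 0.226 on the log2 scale, to 21.1% of the WT mean, the lowest share among the 9 tested genes of the list.

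Ebf2 (chr14:67233292-67430952) had 0, 0 and 3 counts in cells alone, 15, 12 and 10 counts in WT coculture and 12, 8 and 4 counts in sgPrrx1 coculture. The WT and sgPrrx1 libraries overlapped, at 0.213, 0.175 and 0.203 CPM against 0.250, 0.134 and 0.0677 CPM. The ratio of pooled counts to cells alone was 10.6 (95% exact interval 3.35 to 53.6) in WT coculture and 7.74 (2.35 to 40.2) in sgPrrx1 coculture. The call in sgPrrx1 coculture was lost without replicates 1 or 2 of cells alone, without sgPrrx1 replicates 1 or 2, with no filter and with a replicate block, at log2 values from 2.17 to 2.89 against 2.83 ± 0.948 with all libraries. Without replicate 3, which holds all 3 counts, cells alone are at 0. Ebf2 overlaps 4 other annotated genes (Gm52149, Gm6878, 4930438E09Rik and Gm10860), and whether the authors' counting used strand is not stated in the sources used here.

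Foxs1 (chr2:152931898-152933208) was present in 168FARN cells alone, at 1.11, 1.70 and 1.56 CPM. It had 3.24, 2.80 and 3.43 CPM with WT fibroblasts and 1.44, 1.02 and 1.07 CPM with sgPrrx1 fibroblasts. The sgPrrx1 libraries overlapped with cells alone, and both lay below every WT library. The log2 fold change was 1.10 ± 0.192 for WT coculture against alone, -0.33 ± 0.209 for sgPrrx1 coculture against alone, with no call, and -1.43 ± 0.197 between the cocultures. Of 10 mural cell markers, the genes of the cells that wrap small vessels, 6 were tested in 168FARN. In WT coculture 4 were higher than in cells alone and none was lower. In sgPrrx1 coculture none was higher and 1 was lower than in cells alone, and 4 were lower than in WT coculture, among them Acta2 (-4.99 log2), Notch3 (-2.52) and Mcam (-2.09). The summed level of the 10 was 73.3 to 77.6 CPM in cells alone, 82.7 to 86.9 CPM with WT fibroblasts and 58.2 to 61.3 CPM with sgPrrx1 fibroblasts, and 43.0, 40.6 and 26.7 CPM of it in the 3 groups was Pdgfrb, which is also in the fibroblast list. Rgs5 was at 0 in every library of cells alone and of WT coculture, and the part of these markers in the level of Foxs1 was not tested.

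Tcf21 (chr10:22817263-22820143), a marker of visceral and epicardial fibroblast lineages, had 0 counts in all 18 libraries of both lines. It overlaps the annotated gene Gm10824, and whether the counting left out reads shared by both is not given in the sources used here. A count of 0 allows up to 3 counts per library, which is 0.0283 to 0.0626 CPM.

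Per kilobase of exon, the order of the levels in 168FARN WT coculture was Foxs1 at 2.41 ± 0.245 CPM per kb (SD, n = 3), Osr2 at 1.07 ± 0.0985, Osr1 at 0.845 ± 0.0838, Tbx18 at 0.391 ± 0.0918, Ebf1 at 0.349 ± 0.0167, En1 at 0.215 ± 0.0301, Dlx2 at 0.212 ± 0.0821, Meox2 at 0.0608 ± 0.0128 and Ebf2 at 0.0454 ± 0.00452 CPM per kb. Tbx18 and Ebf1, En1 and Dlx2, and Meox2 and Ebf2 did not differ beyond their spread. In cells alone the order was led by Osr2 and Foxs1, at 1.11 ± 0.0418 and 1.11 ± 0.235 CPM per kb, and the next were Osr1 at 0.0411 ± 0.0469 and Ebf1 at 0.0377 ± 0.0180 CPM per kb. Osr2 and Foxs1, and Osr1 and Ebf1, did not differ beyond their spread. For scale, Prrx1 had 11.6 ± 0.119 CPM per kb in WT coculture.

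Fibroblast markers moved in the same libraries. Of 12 such markers, 10 were tested in 168FARN, and 8 were higher and 1 lower in WT coculture than in cells alone. All 10 were lower in sgPrrx1 than in WT coculture. Against cells alone, 6 were higher and 2 lower in sgPrrx1 coculture, with a median log2 fold change of 1.73, and Dcn, a small collagen-binding proteoglycan gene, went from 0.275 ± 0.0769 to 43.3 ± 1.27 CPM. The summed level of the 12 was 639 to 646 CPM in cells alone, 1289 to 1377 CPM with WT fibroblasts and 579 to 581 CPM with sgPrrx1 fibroblasts. Most of the sum in cells alone and in sgPrrx1 coculture was Pcolce, an enhancer of procollagen processing, at 519, 476 and 354 CPM in the 3 groups. Thy1 and Postn had 0 counts throughout cells alone, Fap had 0 in WT coculture, and Lum, Thy1 and Fap had 0 in sgPrrx1 coculture. Postn, a matricellular protein gene of activated fibroblasts, had 22.1 ± 0.891 CPM with WT fibroblasts and 0.0223 ± 0.0386 CPM with sgPrrx1 fibroblasts. Col1a2, a chain of type I collagen, had 0.103 ± 0.0211, 148 ± 7.73 and 12.9 ± 1.57 CPM in cells alone, WT coculture and sgPrrx1 coculture. In these bulk samples, fewer cells of a type and less RNA per cell cannot be told apart, and the part of fibroblast RNA in the levels of the 10 genes was not tested.

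The sgPrrx1 level as a share of the WT level differed from gene to gene in both lists. Among the lineage factors it had a median of 37.2% and ran from 21.1% for Ebf1 to 101% for Osr2. Among the 10 fibroblast markers with at least 30 counts in WT coculture the median was 13.1%, from 0% for Thy1 and 0.101% for Postn to 46.7% for Dcn and 74.2% for Pdgfra and Pcolce. Col1a1 kept 6.45% and Col1a2 8.68%. The share is not corrected for the level in cells alone. That level was 1.91 CPM for Osr2 against 1.85 CPM with WT fibroblasts, and 519 against 476 CPM for Pcolce. It was 1.46 against 3.16 CPM for Foxs1 and 69.3 against 131 CPM for Pdgfra. The medians of the 2 lists were therefore not compared.

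**Figure D2:**
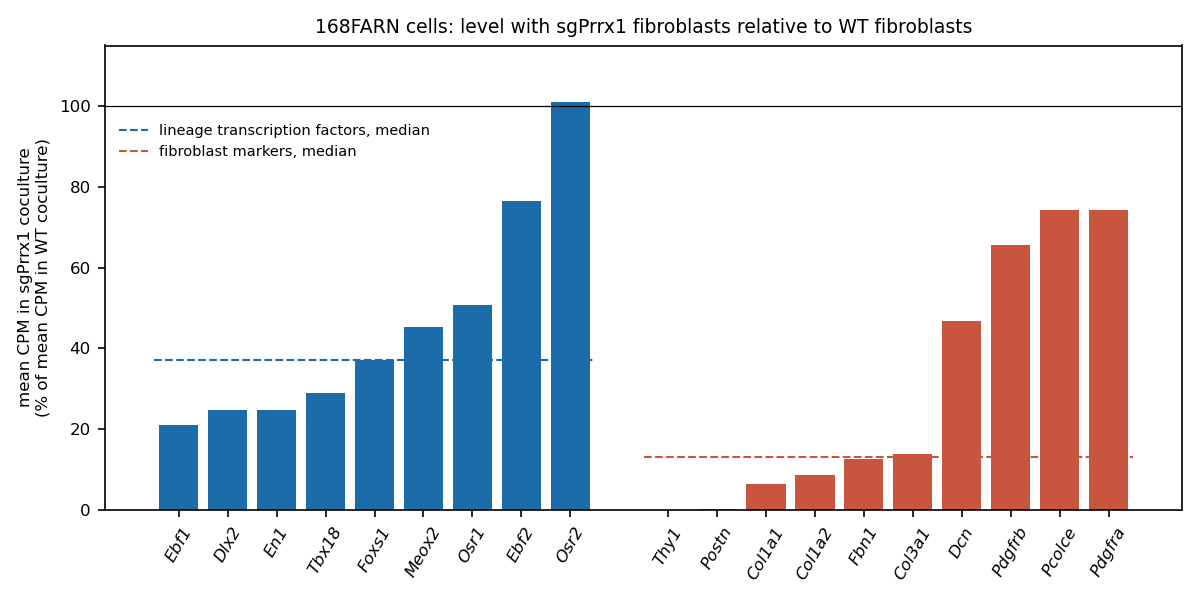
Mean CPM with sgPrrx1 fibroblasts as a percentage of mean CPM with WT fibroblasts, for 9 lineage factors (blue) and 10 fibroblast markers (red) in 168FARN cells, with dashed lines at the medians of 37.2% and 13.1% and a line at 100%. Osr2 sits at 101% and Ebf1 at 21.1%, and the collagen genes Col1a1 and Col1a2 are under 10%. The percentages are not corrected for the level in cells alone.

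The nearest relatives of the 10 genes, taken from a list of 56 family members, did not all follow them in 168FARN. Of 36 relatives tested, 18 were higher and 3 lower in WT coculture than in cells alone, with a median log2 fold change of 0.33 beside 0.01 for all genes. In sgPrrx1 against WT coculture none was higher and 18 were lower, with a median of -0.24 beside -0.03. Foxc2, a forkhead gene of mesenchyme and vessels, had 0 counts in cells alone, 0.656 ± 0.178 CPM with WT fibroblasts, at least 11.6-fold higher (edgeR adjusted p = 3.02e-05), and 0.151 ± 0.0450 CPM with sgPrrx1 fibroblasts (adjusted p = 0.00181 against WT). Ebf4 had 0 CPM in cells alone, 0.255 ± 0.0707 CPM with WT fibroblasts (edgeR adjusted p = 0.00118) and 0 CPM again in sgPrrx1 coculture (adjusted p = 0.00126 against WT).

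Meox1 went the other way from Meox2. It had 10.3 ± 0.212 CPM in 168FARN cells alone and fell to 3.85 ± 0.369 CPM with WT fibroblasts (log2 fold change -1.42 ± 0.0936, edgeR adjusted p = 2.12e-07). It stood at 4.30 ± 0.386 CPM with sgPrrx1 fibroblasts, with no call between the cocultures (adjusted p = 0.210). Tbx15, a T-box gene of limb and skin mesenchyme, rose from 17.2 ± 0.682 to 23.2 ± 1.89 CPM with WT fibroblasts (edgeR adjusted p = 6.00e-05) and was 18.6 ± 0.121 CPM with sgPrrx1 fibroblasts (adjusted p = 0.000656 against WT). Dlx1, which lies beside Dlx2 in a shared gene cluster, was at 8.47 ± 0.609 CPM in cells alone and had 7.86 ± 0.437 CPM with WT fibroblasts (adjusted p = 0.249). Tcf15 was not called (0.457 ± 0.00853 CPM in cells alone, 0.311 ± 0.106 CPM with WT fibroblasts, edgeR adjusted p = 0.187), and Ebf3 was too low to test. En2 had 21 counts in all, in sgPrrx1 libraries. Tbx22 and Msc had 0 counts in every library of either line.

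Among 56 other transcription factor genes of mesenchyme, 43 were tested in 168FARN. In WT coculture 32 were higher and 3 lower, with a median log2 fold change of 0.44. Between sgPrrx1 and WT coculture 4 were higher and 31 lower, with a median of -0.26. Gata6, a zinc finger gene of mesoderm and endoderm, was absent from the counts of cells alone and had 1.11 ± 0.0586 CPM with WT fibroblasts, at least 19.6-fold higher (edgeR adjusted p = 8.80e-06), and 0.150 ± 0.0762 CPM with sgPrrx1 fibroblasts (adjusted p = 0.000193 against WT). Wt1, a factor of epicardium and kidney mesenchyme, had 1.78 ± 0.244 CPM with WT fibroblasts and 0.337 ± 0.137 CPM with sgPrrx1 fibroblasts (edgeR adjusted p = 6.26e-05). Creb3l1, a factor that drives collagen genes, fell from 3.73 ± 0.0968 to 0.515 ± 0.205 CPM (edgeR adjusted p = 5.55e-06), and Hic1, a gene of quiescent mesenchymal cells, from 2.18 ± 0.120 to 0.337 ± 0.212 CPM (adjusted p = 7.90e-05).

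In LLC1 cells the list divided in another way. Tbx18, Meox2, En1 and Tcf21 had 0 counts in all 9 libraries, and Ebf2 had 5 counts in 1 WT library and 4 in 1 sgPrrx1 library. Osr1, Osr2, Ebf1, Foxs1 and Dlx2 passed the filter, and all were present in cells alone at 2.85 CPM or more in every library. Per kilobase, Dlx2 led in cells alone with 11.1 ± 0.493 CPM per kb, followed by Osr1 with 10.2 ± 0.886, Osr2 with 6.92 ± 0.0968, Foxs1 with 3.88 ± 0.438 and Ebf1 with 0.347 ± 0.0515 CPM per kb. Dlx2 and Osr1 did not differ beyond their spread.

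In WT coculture against alone, 1 of the 5 genes was lower (Osr2) and none was higher, beside 4.58% of 12873 genes called lower. In sgPrrx1 coculture against alone Osr2 was again the gene called, beside 2.31% called lower. Between the cocultures none of the 5 was called by edgeR, beside 0.0544% of all genes, with 1 of the 5 at an unadjusted p under 0.05, beside 12.0% of all genes. DESeq2 called 0 of the 5, beside 3.89% of all genes, and limma voom with quality weights 3, beside 36.4%. Libraries did not overlap for 3, 1 and 1 of the 5 genes (lower, lower and higher), beside 27.5%, 16.5% and 12.3% of all genes. The median log2 fold changes over the 5 genes were -0.23, -0.07 and 0.08 in these 3 comparisons. Without sgPrrx1 replicate 3 the 3 counts were 2 lower, 1 lower and 0, beside 22.2% and 14.2% of all genes called lower and 5.69% called in either direction.

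**Figure D3:**
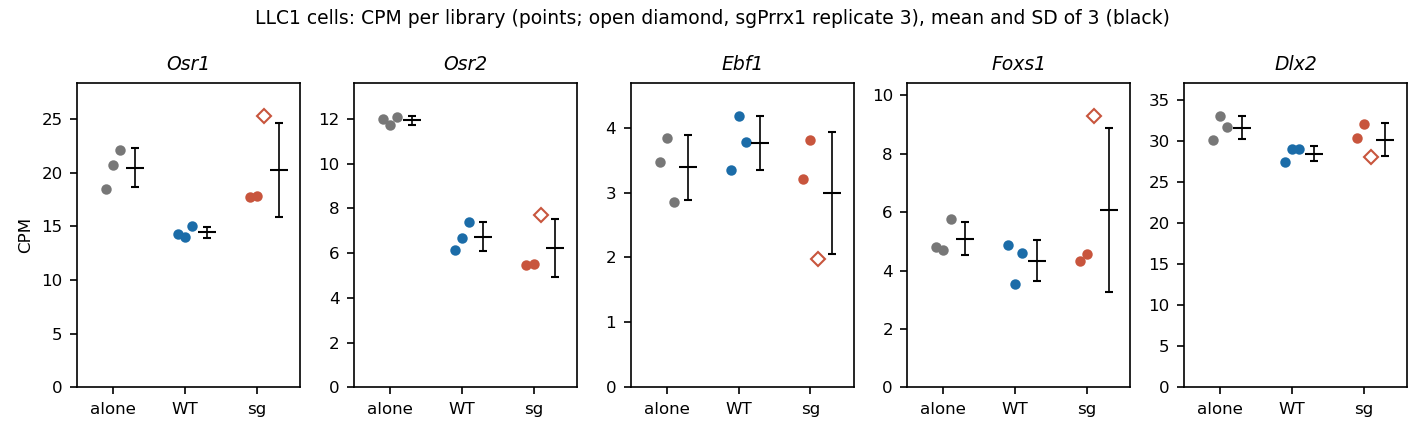
CPM of the 5 genes tested in LLC1 cells, in the same layout, with axes from 0. The open diamond is sgPrrx1 replicate 3, which is the highest library for Osr1 (25.3 CPM) and Foxs1 (9.30 CPM) and the lowest for Ebf1 (1.97 CPM). Osr2 in the 3 libraries of cells alone is above all 6 coculture libraries.

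Osr2 in LLC1 had 12.0, 11.7 and 12.1 CPM in cells alone, 6.13, 6.67 and 7.41 CPM with WT fibroblasts and 5.46, 5.52 and 7.72 CPM with sgPrrx1 fibroblasts. Every coculture library was below every library of cells alone, and the cocultures overlapped each other. The log2 fold change was -0.82 ± 0.151 in WT coculture and -0.94 ± 0.152 in sgPrrx1 coculture, against the same libraries of cells alone. Each call was lost when any library of cells alone was left out, the first also without any WT library and the second also without sgPrrx1 replicates 1 or 2. The values then ran from -0.90 to -0.76 and from -0.95 to -0.85. Without sgPrrx1 replicate 3 the second value was -1.11.

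Osr1 in LLC1 had 18.5, 20.7 and 22.1 CPM in cells alone, 14.3, 14.0 and 15.0 CPM with WT fibroblasts and 17.7, 17.8 and 25.3 CPM with sgPrrx1 fibroblasts. The WT libraries were below all others. The log2 fold change for WT coculture against alone was -0.50 ± 0.152 with no call, and -0.49 with a call when sgPrrx1 replicate 3 was left out of the fit. Between sgPrrx1 and WT coculture it was 0.49 ± 0.152, and 0.30 without that replicate, with no call in either fit.

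Dlx2 in LLC1 had 30.2, 33.1 and 31.7 CPM in cells alone, 27.5, 29.0 and 29.0 CPM with WT fibroblasts and 30.4, 32.1 and 28.1 CPM with sgPrrx1 fibroblasts. The WT libraries were below those of cells alone, by -0.15 ± 0.0884 on the log2 scale, with no call. Foxs1 had 4.82, 4.70 and 5.75 CPM in cells alone, 4.88, 3.54 and 4.59 CPM with WT fibroblasts and 4.34, 4.56 and 9.30 CPM with sgPrrx1 fibroblasts, and the groups overlapped. Its log2 fold change between the cocultures was 0.48 ± 0.294, and 0.03 without sgPrrx1 replicate 3. Ebf1 had 3.47, 3.84 and 2.85 CPM in cells alone, 3.34, 4.18 and 3.77 CPM with WT fibroblasts and 3.21, 3.81 and 1.97 CPM with sgPrrx1 fibroblasts. Its groups overlapped too, and its log2 fold change between the cocultures was -0.32 ± 0.240, and -0.11 without that replicate.

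Of 9 fibroblast markers tested in LLC1, 3 were higher and 2 lower in WT coculture than in cells alone, and 2 were lower in sgPrrx1 than in WT coculture. Without sgPrrx1 replicate 3, 4 were higher and 4 lower in WT coculture than in cells alone, and between the cocultures 1 was higher and 2 were lower with sgPrrx1 fibroblasts. The summed level was 1965 to 2040 CPM in cells alone, 1542 to 1583 CPM with WT fibroblasts and 1981 to 2251 CPM with sgPrrx1 fibroblasts, most of it Col3a1, which had a mean of 1579 CPM in cells alone. Thy1 and Fap had 0 counts in all sgPrrx1 libraries. Col1a2 had 0.0296 ± 0.0324, 8.68 ± 0.538 and 0.264 ± 0.0443 CPM in cells alone, WT coculture and sgPrrx1 coculture (edgeR adjusted p = 0.000220 for WT against alone and 0.00361 between the cocultures). Their part in the levels of the 5 genes was not tested.

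The relatives of the 10 genes fell or were not called in LLC1. Of 32 tested, none was higher and 3 were lower in WT coculture than in cells alone, beside 4.58% of all genes called lower. Without sgPrrx1 replicate 3, 0 were higher and 10 lower, beside 22.2% of all genes called lower. Foxc1 had 17.3 ± 0.632 CPM in cells alone and 10.1 ± 0.393 CPM with WT fibroblasts (edgeR adjusted p = 0.00515). Ebf4 had 3.44 ± 0.490 and 1.63 ± 0.113 CPM (adjusted p = 0.00811), and Foxa2, a forkhead gene of endoderm, 9.49 ± 0.744 and 6.44 ± 0.485 CPM (adjusted p = 0.0189). Between the cocultures none of the 32 was called by edgeR, with 2 at an unadjusted p under 0.05. Of 35 other mesenchymal transcription factor genes tested in LLC1, 0 were higher and 5 lower in WT coculture. Without sgPrrx1 replicate 3, 5 were higher and 16 lower of 37, in a fit that called 44.2% of all genes and 22.2% lower. Tshz1, a zinc finger gene of trunk mesenchyme, fell from 112 ± 12.8 to 49.4 ± 3.99 CPM (edgeR adjusted p = 0.0210), and Nr2f1, an orphan nuclear receptor gene, from 34.6 ± 1.56 to 18.9 ± 0.717 CPM (adjusted p = 0.00653).

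The difference between the lines was fitted as an interaction over all 18 libraries and 14369 genes. For the change from alone to WT coculture, 5 of the 10 genes passed the threshold, all with LLC1 below 168FARN, beside 15.8% of all genes in that direction. These were Dlx2 (-8.44 ± 0.913 log2, LLC1 minus 168FARN), Osr1 (-4.86 ± 0.467), Ebf1 (-3.05 ± 0.383), Foxs1 (-1.34 ± 0.363) and Osr2 (-0.77 ± 0.182). The fitted value of Dlx2 depends on 0 counts in 168FARN cells alone and is no measure of size. For the change from WT to sgPrrx1 coculture, 4 genes passed with LLC1 above 168FARN, beside 11.0% of all genes: Dlx2 (2.09 ± 0.422), Ebf1 (1.91 ± 0.365), Foxs1 (1.88 ± 0.367) and Osr1 (1.45 ± 0.352). Without LLC1 sgPrrx1 replicate 3 these 4 values were 2.12, 2.11, 1.44 and 1.25, and all 9 calls held. Tbx18, Meox2 and En1 could not be compared, since both groups were at 0 in LLC1. A log2 change depends on the starting level, and each of the 5 genes was higher in LLC1 than in 168FARN cells alone. Osr1 had 0.0825 CPM in 168FARN and 20.4 CPM in LLC1, and Dlx2 had 0 and 31.7 CPM. A gain of the same CPM would be a smaller log2 change in LLC1, and the difference in CPM was not tested. The lines also differed in their fibroblasts, so line and fibroblast source cannot be told apart.

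**Figure D4:**
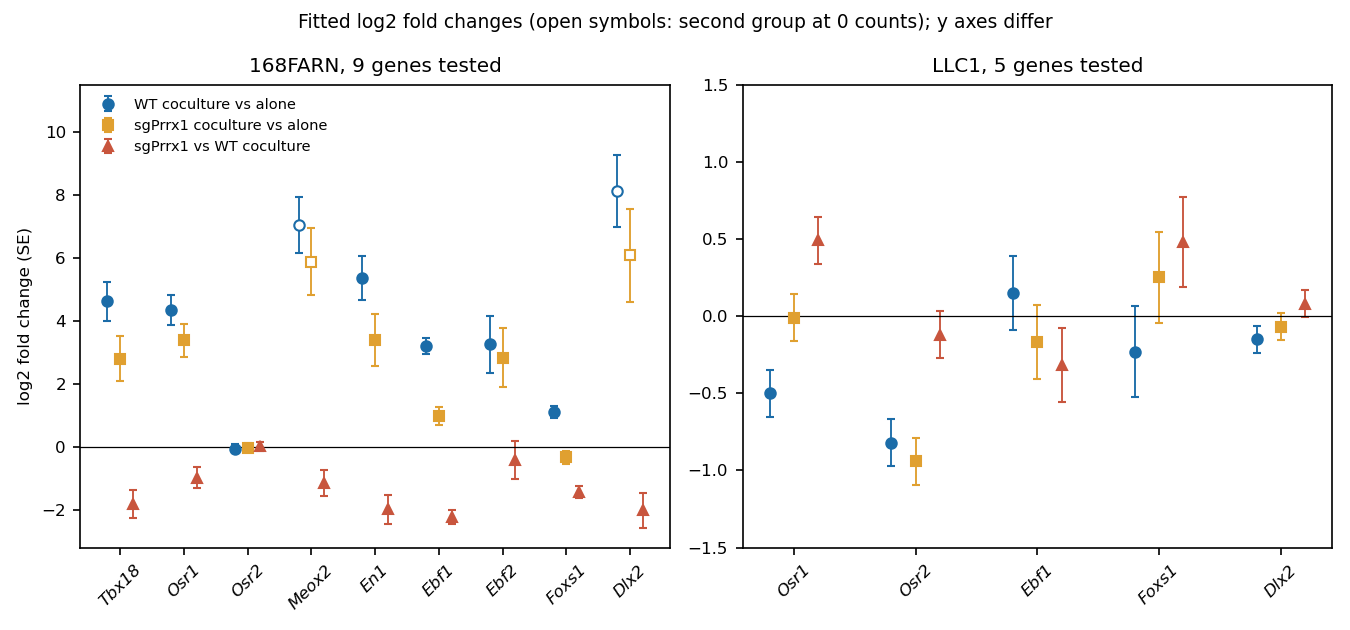
Fitted log2 fold changes with SE for the genes tested in 168FARN (left, 9 genes) and LLC1 (right, 5 genes), with y axes of different range. Open symbols mark comparisons with 0 counts in cells alone, whose fitted size depends on the prior count. In 168FARN all genes but Osr2 lie above 0 for WT coculture against alone, and in LLC1 all values lie between -1 and 1.

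The genes most like the list in 168FARN, by Pearson r over the 9 libraries with the mean log2(CPM + 0.1) of the 10 genes, were Ipo7, Ppme1 and Lats2 (0.996 each), Nrp1 (0.995) and P3h4 (0.994), out of 11375 genes with a mean of at least 1 CPM. In that line 11.0% of the genes had r over 0.9, and the libraries share the difference between the 3 groups. Nrp1, a coreceptor for semaphorins and VEGF, had 0.0362 ± 0.0322, 3.28 ± 0.185 and 0.645 ± 0.202 CPM in cells alone, WT coculture and sgPrrx1 coculture. P3h4, a gene of collagen modification, had 0.308 ± 0.0353, 4.73 ± 0.222 and 1.20 ± 0.0738 CPM. In LLC1 the nearest were Slc41a3 (0.959), Nucb2 (0.953), Xrcc5 (0.950), Gkap1 (0.938) and Tpst1 (0.932) out of 11155 genes, of which 0.215% had r over 0.9. The order depends on the pseudocount: with 1 in place of 0.1, r was 0.967 for Ipo7, 0.974 for Ppme1, 0.985 for Lats2, 0.995 for Nrp1 and 0.993 for P3h4, and in LLC1 it was highest for Nucb2 among its 5 genes (0.980). These values are a description of 9 libraries in 3 groups.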

How the data were processed

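RNA was sequenced as 100 bp read pairs from sorted mouse cancer cells in 18 libraries. The authors deposited whole-number read counts per gene symbol, 1 table for each line. Per the labels and the study's methods, reads were trimmed with Trimmomatic, aligned to mm10 with STAR and counted per gene with HTSeq. The methods also name a batch correction by ComBat-seq, after the human samples, and whether it was applied to these tables is not given in the sources used here, nor are strand setting and annotation. Genes with 1 count were fewer than genes with 2 counts in 9 of 9 libraries of 168FARN and 8 of 9 of LLC1, so counting intervals and floors hold only if the deposited values are unadjusted counts. Groups and replicate numbers came from the sample titles and characteristics. The 10 genes and all gene lists were chosen with earlier results of these data known.

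Counts were analysed with edgeR 4.0.16 in R 4.3.3: filterByExpr (13540 and 12873 genes kept), TMM scaling, 1 fit of 9 libraries per line with a mean for each group, a two-sided quasi-likelihood test and Benjamini-Hochberg adjustment over all genes kept, with a threshold of 0.05. The steps were tested on simulated data with known fold changes. CPM used the TMM-scaled totals. Differences between lines were interaction terms in a fit of all 18 libraries over 14369 genes. Exon lengths came from the NCBIM37 annotation, as lengths only. Counts of 0 were given a floor of 3 counts per library, and exact 95% intervals cover counting error only, since reads are not independent molecules. After TMM scaling, 3 counts are 0.0426 to 0.0626 CPM in 168FARN and 0.0283 to 0.0514 CPM in LLC1.

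Named genes were all 10 of the list, their nearest relatives, Prrx1, markers at 0 counts, the 5 genes per line most like the list, and up to 4 called genes per list with the largest log2 fold change and a mean of at least 10 counts. The share of the WT level is given for fibroblast markers outside that rule, chosen after their values were seen. Same-numbered libraries deviated together in LLC1 alone and sgPrrx1 coculture (r = 0.163, 0.340 and 0.522), so that comparison was also fitted with a replicate block. The deviations were taken from a group mean that includes sgPrrx1 replicate 3, which stood apart, so these r values are not independent. In the other comparisons the correlations reached 0.312 (LLC1 WT with sgPrrx1 coculture), and no label says that the numbers pair cultures. Alternatives were DESeq2 1.42.0, RLE scaling, library totals with no scaling factor, all genes with any count kept, a minimum of 10 counts in each library, a replicate block, limma 3.58.1 voom with quality weights, each library left out, and only the 2 groups compared. Gene lists in LLC1 without sgPrrx1 replicate 3 were added after seeing the data.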

Additional observations from a re-analysis of the deposited data

Results flagged for a closer look

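The change from cells alone to WT coculture differed between the lines for 5 of the 10 genes, as an interaction in the joint edgeR fit (LLC1 minus 168FARN, log2): Osr1 by -4.86 (-6.01 without 168FARN alone replicate 3), Osr2 by -0.77, Ebf1 by -3.05 and Foxs1 by -1.34. The fitted value of Dlx2 was -8.44, which depends on 0 counts in 168FARN cells alone and is no measure of size. The share of all 14369 genes called with LLC1 below 168FARN was 15.8%, and the genes were selected on these same comparisons. The log2 values depend on the level in cells alone, which was higher in LLC1 for each of the 5 genes.

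The change from WT to sgPrrx1 coculture differed for 4 of the 10 genes: Osr1 by 1.45, Ebf1 by 1.91, Foxs1 by 1.88 and Dlx2 by 2.09, beside 11.0% of all genes called with LLC1 above 168FARN. In LLC1 none of these 4 passed the threshold on its own.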

How the results depend on the processing

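In 168FARN, 8 of the 9 tested genes were called in WT coculture against alone under all alternatives but 1. That was the filter of at least 10 counts in every library, which left 3 genes to test. It gave 2 calls, beside 66.3% of all genes. The same filter gave 1 call for sgPrrx1 coculture against alone (52.5% of all genes) and 2 for sgPrrx1 against WT coculture (64.0%). For the differences between lines it gave 3 (WT against alone, 33.5% of all genes) and 2 (sgPrrx1 against WT, 22.1%). With only the 2 groups compared in the fit, sgPrrx1 coculture against alone gave 3 calls in 168FARN among 5 genes tested, beside 53.0% of all genes. Each library left out gave 5 to 7 calls for sgPrrx1 coculture against alone, beside 43.0% to 50.9% of all genes. For sgPrrx1 against WT coculture it gave 5 to 7, beside 54.4% to 59.0%.

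In LLC1, WT coculture against alone gave 2 calls with DESeq2, 2 with library totals, 2 with only the 2 groups and 3 with voom, beside 17.7%, 10.4%, 40.7% and 58.6% of all genes, and 0 to 2 with each library left out. For sgPrrx1 coculture against alone there were 0 calls with only the 2 groups (0.215% of all genes) and 0 to 1 with each library left out. For sgPrrx1 against WT coculture voom gave 3 calls (Osr1 and Dlx2 higher, Osr2 lower), beside 36.4% of all genes. Between lines, voom gave 8 calls for WT against alone, with Tbx18, Meox2 and En1 among them at 0 in LLC1, beside 60.7% of all genes. The cause of these moves was not tested.

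With the replicate number as a block, calls were 8, 6 and 5 in 168FARN (WT against alone, sgPrrx1 against alone, sgPrrx1 against WT), 1, 1 and 0 in LLC1, and 5 and 4 between lines. The shares of all genes called in these fits were 63.2%, 49.1% and 59.4% in 168FARN and 7.99%, 2.96% and 0.0155% in LLC1. Between lines they were 32.4% and 22.1%. The check of the numbers gave correlations from -0.0588 to 0.0896 in 168FARN, and in LLC1 from -0.0743 to 0.218 for alone with WT and from -0.0137 to 0.312 for WT with sgPrrx1. For LLC1 sgPrrx1 against alone, where same-numbered libraries deviated together, the block changed no call of the list. Over single genes and alternatives, 938 values kept their side of the threshold and their direction, 9 passed it newly and 36 no longer passed it, and none called changed sign. The 9 leave out the voom calls of Tbx18, Meox2 and En1 between lines, since these genes were at 0 in LLC1.

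Counts over all genes moved by more than 1.5 times in LLC1 and between lines. Of 1137 genes in WT coculture against alone, DESeq2 gave 2276, voom 7549, the 2 groups alone 5167, and each library left out 273 to 5779, the highest without sgPrrx1 replicate 3. Of 556 in sgPrrx1 coculture against alone, these were 1944, 6183, 27 and 52 to 3495. Of 7 in sgPrrx1 against WT coculture, these were 501, 4681, 11 and 3 to 745, with 2 under the filter of at least 10 counts and 2 under the block. Between lines, 4230 became 8716 with voom and 7681 without LLC1 sgPrrx1 replicate 3, and 2771 became 7886 and 6517. Levels under about 0.06 CPM are within the 3 counts that a count of 0 allows.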

Other observations

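Markers of other cell types were measured beside the lineage factors. Of 4 adipocyte and brown fat markers tested in 168FARN, 3 were higher in WT coculture than in cells alone and 2 were lower in sgPrrx1 than in WT coculture. Lpl, the lipase that frees fatty acids from lipoproteins, had 0.0310 ± 0.0309, 6.64 ± 0.171 and 0.639 ± 0.274 CPM in cells alone, WT coculture and sgPrrx1 coculture (edgeR adjusted p = 4.19e-08 for WT against alone and 8.68e-07 between the cocultures). Fabp4, a fatty acid binding protein gene, rose from 0.483 ± 0.129 to 1.52 ± 0.234 CPM in WT coculture (adjusted p = 9.42e-05) and stood at 1.84 ± 0.226 CPM in sgPrrx1 coculture. Prdm16, a brown fat regulator, had 0 counts in all 9 libraries of 168FARN. Acta2, smooth muscle actin, a gene of mural cells and myofibroblasts, had 0.328 ± 0.0628, 9.18 ± 0.700 and 0.281 ± 0.0817 CPM in the 3 groups of 168FARN (edgeR adjusted p = 2.31e-09 and 4.42e-09).

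Of 4 endothelial markers tested in 168FARN, 2 were higher in WT coculture and 1 was lower between the cocultures. Cdh5, the cadherin of vessel walls, had 0.277 ± 0.131, 5.94 ± 0.712 and 3.90 ± 0.284 CPM (edgeR adjusted p = 3.29e-08 for WT against alone and 0.00681 between the cocultures), while Cldn5 and Emcn had 0 counts in all 9 libraries. In LLC1, 1 of 2 was higher, Kdr, a VEGF receptor gene, at 6.04 ± 0.497 CPM in WT coculture against 0.0123 ± 0.0213 CPM in cells alone (adjusted p = 0.00231), and 1 of the 2 was higher and 1 lower when sgPrrx1 replicate 3 was left out. Of 5 macrophage and leukocyte markers tested in 168FARN, 3 were higher and 2 lower in WT coculture, and Ptprc, the common leukocyte antigen, had 0 counts in all 9 libraries. In LLC1, 1 of 3 was higher in WT coculture, Cd68, at 36.6 ± 0.946 against 16.2 ± 0.704 CPM (edgeR adjusted p = 0.0124), and without sgPrrx1 replicate 3 all 3 were higher.

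Of 3 epithelial markers tested in 168FARN all 3 were higher in WT coculture. Between sgPrrx1 and WT coculture 1 was higher and 2 were lower. Krt8, the most abundant of them, had 331 ± 12.5, 372 ± 14.3 and 419 ± 2.76 CPM in cells alone, WT coculture and sgPrrx1 coculture (edgeR adjusted p = 0.00109 for WT against alone and 0.000998 between the cocultures). Krt7 had 6.24 ± 0.469, 12.1 ± 1.19 and 9.98 ± 0.526 CPM (adjusted p = 2.76e-06 and 0.0143). Krt19, a keratin gene, had 0 counts in cells alone and in sgPrrx1 coculture and 3.09 ± 0.162 CPM in WT coculture, at least 54.5-fold higher (edgeR adjusted p = 1.87e-06). In LLC1 the 1 epithelial marker tested, Krt18, was higher in WT coculture, at 0.377 ± 0.0754 CPM against 0.0125 ± 0.0216 CPM (adjusted p = 0.0282), and 2 of 3 tested were higher when sgPrrx1 replicate 3 was left out. Of 5 mural cell markers tested in LLC1, 1 was lower in WT coculture, and 3 were lower without sgPrrx1 replicate 3. Of 4 adipocyte and brown fat markers tested in LLC1, 2 were higher and 1 lower in WT coculture, with and without that library.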
